A study of Mus musculus with 2 samples.

Results

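The endoplasmic reticulum (ER) chaperones and the ER-associated degradation machinery were compared between Fut8-/- and Fut8+/+ mouse embryonic fibroblasts, connective tissue cells of the embryo grown in a dish, with 1 array each. The 33 genes were set by name as those of chaperones, folding enzymes, stress sensors and degradation factors of the ER, and all 33 of 18193 genes had probe sets carrying exactly their symbol, 76 in all. Fut8 encodes the alpha1,6-fucosyltransferase, a Golgi enzyme that attaches core fucose to the N-glycans of glycoproteins. The Fut8-/- cells are homozygous for the disrupted gene and the Fut8+/+ cells carry both normal copies. Both were grown in the same serum-containing medium with no treatment named in the labels, and total RNA was hybridised to Affymetrix mouse arrays. The embryos' age and strain, and whether a culture came from 1 embryo or several, are not given in the labels. With 1 array per genotype there is no replicate check and no test of any difference below. The design text names 3 cultures per genotype, and whether the RNA of an array came from 1 dish or from several pooled is not stated in the labels.

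Proteins that enter the secretory pathway fold in the ER lumen. There Hspa5 (BiP, an HSP70 chaperone) and Hsp90b1 hold unfolded chains, calreticulin and calnexin hold chains that carry N-glycans, and protein disulfide isomerases form and exchange disulfide bonds. Chains that fail to fold are marked by trimming of their mannoses, passed through the membrane and degraded by the proteasome. When unfolded chains accumulate, the sensors Ire1 (encoded by Ern1), Atf6 and PERK start the unfolded protein response, in which spliced Xbp1 and cleaved Atf6 are known to raise the transcription of many of these genes. A fibroblast depends on this system because it secretes collagen and other matrix proteins. Core fucose is added after the ER, in the Golgi.

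Signals are given as deposited, on a linear scale, for the brightest probe set of each gene. Ratios are Fut8-/- over Fut8+/+ on the log2 scale, centred so that the median of bright probe sets is 0, and folds come from the centred ratios. A gene is called measured if its signal reached 39.1, the 60th percentile of all signals, on either array, and signals under 12.3, the 40th percentile, were raised to that floor before ratios were taken. Fut8 itself had a signal of 11.7 in Fut8-/- cells, against 191 in Fut8+/+ cells; the labels do not say whether its probes read the disrupted exons. Of 12 fibroblast markers 9 were measured, and their list had a summed signal of 30317 in Fut8-/- cells, against 39804 in Fut8+/+ cells. Vim and Col1a2 were bright on both arrays, while Dcn, Lum and Thy1 were below the measured limit on both. Of these markers, 4 passed the 2-fold limit as lower, namely the transcription factor gene Prrx1, the secreted proteins Fn1 (log2 ratio -1.70) and Col1a1 (-1.37), and the receptor gene Pdgfra (-1.17). Prrx1 was at the floor in Fut8-/- cells, with a signal of 7.26, against 221 in Fut8+/+ cells, which is at least 17.9-fold lower. The receptor gene Pdgfrb passed the limit as higher (1.09). Markers of other cells were mostly dim. The summed signal of 6 epithelial markers was 278 in Fut8-/- cells, against 82.6 in Fut8+/+ cells, with Krt19 and Dsp at the floor in Fut8+/+ cells alone, while Epcam was dimmer in Fut8-/- cells, at 15.9, against 44.9 in Fut8+/+ cells. That of 5 leukocyte markers was 83.4 in Fut8-/- cells, against 108 in Fut8+/+ cells, and that of 4 endothelial markers 40.7 in Fut8-/- cells, against 67.3 in Fut8+/+ cells. For 4 markers of plasma cells, which secrete heavily, the sum was 733 in Fut8-/- and 1362 in Fut8+/+ cells, mainly from Sdc1, which fibroblasts also express, and Jchain was below the measured limit on both arrays. Ptprc, Pecam1 and Cdh1, which define leukocytes, endothelium and epithelium, lay at the background floor on both arrays. The ratio of 3-prime to 5-prime signal was 0.732 for Gapdh in Fut8-/- cells, against 0.812 in Fut8+/+ cells, and for beta-actin 1.25 in Fut8-/- cells, against 1.20 in Fut8+/+ cells. The 4 measured genes of chromosome Y had a median log2 ratio of 5.62, so the 2 cultures may differ in sex. Whether sex, cell make-up, secretory load or RNA quality had a part in the ER values was not tested.

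All 33 ER genes were measured, with signals between 107 and 5604 in Fut8-/- cells and between 168 and 7018 in Fut8+/+ cells. Their signals were slightly lower in Fut8-/- cells, and the difference was uneven. The median log2 ratio was -0.22, with 25% of the genes below -0.57 and 25% above 0.04. Over all 10164 measured genes the median was 0.00, with quartiles at -0.38 and 0.36. Ratios lay below 0 for 23 of the 33 genes (69.7%), against 49.9% of all measured genes.

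At least 2-fold lower signals were found for 4 of the 33 genes, namely Pdia5, Atf6, Dnajb9 and Pdia4, and at least 2-fold higher signals for 0. That is 12.1% of the ER genes, where 8.46% of all measured genes were lower and 6.08% higher by that much. Among the 7409 genes whose brighter array reached the 75th percentile of signals, which include all 33, the lower share was 6.05%. At a 1.5-fold limit 8 ER genes were lower (24.2%, against 16.6% of all measured genes). Derl1 was the 1 higher gene (3.03%, against 14.4%). Without centring the 1.5-fold counts were 13 lower, where 26.4% of all genes were lower, and 0 higher. With 1 array per genotype these shares could not be tested against those of all genes.

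**Figure D1:**
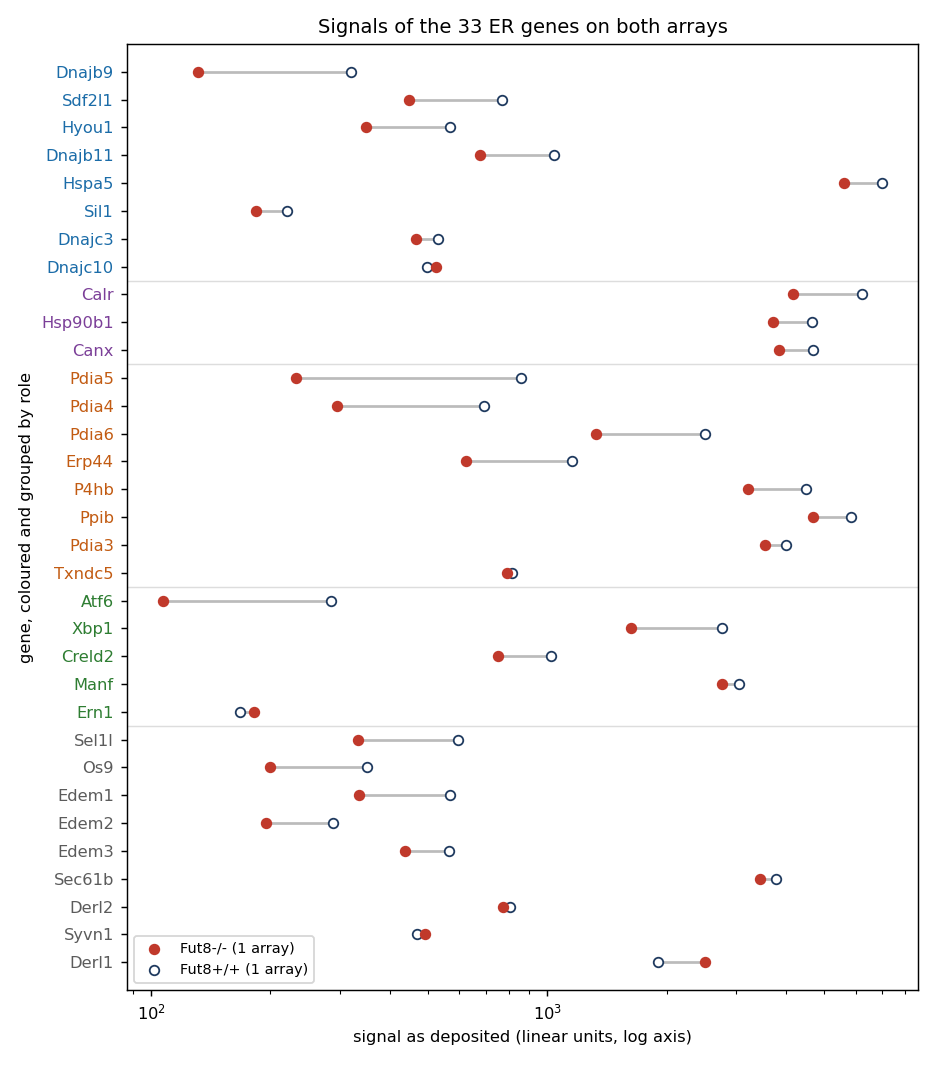
Signals of the 33 ER genes as deposited (log axis), filled for the Fut8-/- array and open for the Fut8+/+ array, grouped by role and joined by a line for each gene. The widest gaps are those of Pdia5, Atf6, Dnajb9 and Pdia4, whereas Derl1 is the gene with the widest gap in the other direction.

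**Figure D2:**
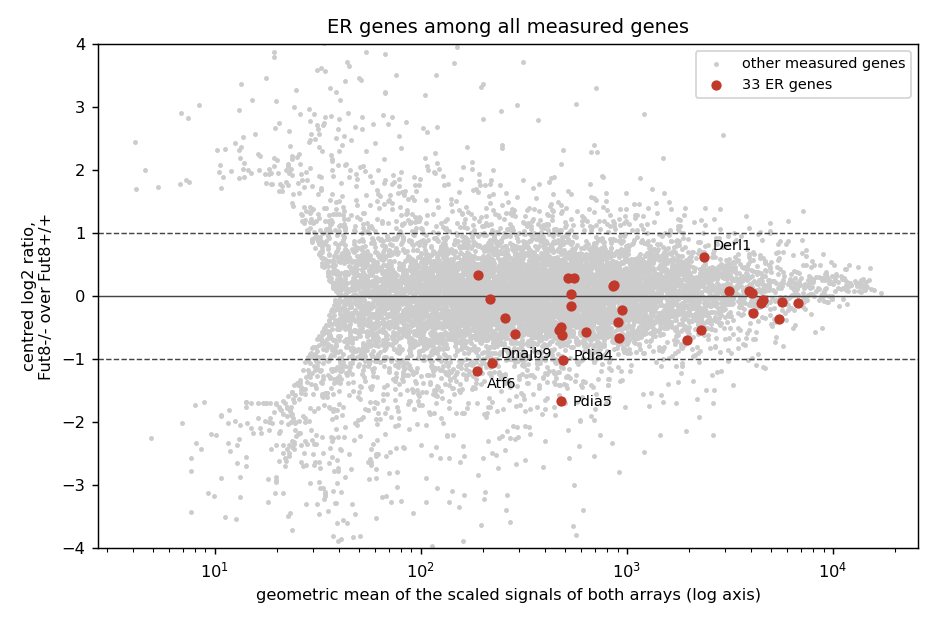
Centred log2 ratio of Fut8-/- over Fut8+/+ against the geometric mean signal of both arrays (log axis) for all 10164 measured genes in grey and the 33 ER genes in red. Dashed lines mark 2-fold, and 66 genes lie outside the ratio axis. The ER genes under the lower line are Pdia5, Atf6, Dnajb9 and Pdia4, and Derl1 is the highest ER gene.

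Of the 33 ER genes, 11 had a geometric mean signal of at least 2000 over both arrays, and their log2 ratios ran between -0.54 (Xbp1) and 0.61 (Derl1). Derl1 was the 1 of these past 1.5-fold, where 14.3% of the 903 measured genes as bright passed it in either direction. Of the other 22 ER genes 8 passed 1.5-fold in either direction, a share close to the 32.7% of the 9261 dimmer measured genes. All 8 were lower, and the share of the dimmer genes that were lower was not counted. Pdia6, 1 of the 8, lay just under the limit of 2000. A signal depends on the probes as well as on the RNA, so brightness does not rank the genes by abundance.

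Promoters are shown for the genes with the widest gaps and for Hspa5, Hsp90b1 and Calr, because Atf6 and Xbp1 act on this gene group through short promoter motifs. The windows run from 250 bases before to 50 bases after the annotated start, 5′ to 3′ on the gene's strand, and come from RefSeq on build GRCm38.p6. Windows of 28 of the 33 genes were matched by symbol, and Hyou1, Derl1, Atf6, Sil1 and Manf had none used here. The ER stress element (ERSE, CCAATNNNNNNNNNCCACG, that is CCAAT and CCACG with 9 bases between) is known to bind NF-Y at CCAAT and Atf6 at CCACG. Capitals mark each ERSE on either strand in the following 4 windows.
Hspa5 (chr2:34771840-34772139, plus strand): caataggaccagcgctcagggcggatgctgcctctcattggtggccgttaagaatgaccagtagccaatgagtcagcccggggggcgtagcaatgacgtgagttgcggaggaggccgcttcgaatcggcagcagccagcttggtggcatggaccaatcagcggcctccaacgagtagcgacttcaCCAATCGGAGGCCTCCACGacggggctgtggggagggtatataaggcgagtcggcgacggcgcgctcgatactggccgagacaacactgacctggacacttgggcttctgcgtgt
Hsp90b1 (chr10:86705395-86705694, minus strand): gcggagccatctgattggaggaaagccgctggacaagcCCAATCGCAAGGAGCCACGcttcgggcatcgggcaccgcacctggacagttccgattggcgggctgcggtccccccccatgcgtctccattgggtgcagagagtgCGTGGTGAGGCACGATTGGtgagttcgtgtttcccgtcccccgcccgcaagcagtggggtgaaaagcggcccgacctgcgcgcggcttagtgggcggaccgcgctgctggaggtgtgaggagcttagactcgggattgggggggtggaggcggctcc
Calr (chr8:84846882-84847181, minus strand): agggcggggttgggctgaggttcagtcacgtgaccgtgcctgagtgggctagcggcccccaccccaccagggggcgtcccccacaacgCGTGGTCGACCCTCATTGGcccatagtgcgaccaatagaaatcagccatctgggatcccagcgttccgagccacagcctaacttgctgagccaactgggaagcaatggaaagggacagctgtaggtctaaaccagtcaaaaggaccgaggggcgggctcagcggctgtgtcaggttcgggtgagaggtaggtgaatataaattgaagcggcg
Pdia6 (chr12:17266339-17266638, plus strand): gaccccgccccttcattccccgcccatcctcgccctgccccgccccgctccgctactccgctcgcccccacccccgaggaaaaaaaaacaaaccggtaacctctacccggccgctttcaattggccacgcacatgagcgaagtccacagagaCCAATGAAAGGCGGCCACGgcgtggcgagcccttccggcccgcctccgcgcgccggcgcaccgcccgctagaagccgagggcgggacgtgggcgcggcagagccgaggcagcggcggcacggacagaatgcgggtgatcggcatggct
The 3 other windows held no exact ERSE, and capitals mark CCACG, its second part, on either strand.
Pdia5 (chr16:35490824-35491123, minus strand): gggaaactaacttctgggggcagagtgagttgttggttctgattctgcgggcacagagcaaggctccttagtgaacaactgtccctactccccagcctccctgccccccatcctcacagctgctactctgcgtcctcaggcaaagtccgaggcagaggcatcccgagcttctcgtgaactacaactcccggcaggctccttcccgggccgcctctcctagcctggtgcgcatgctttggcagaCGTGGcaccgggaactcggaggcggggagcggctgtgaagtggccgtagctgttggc
Dnajb9 (chr12:44210019-44210318, minus strand): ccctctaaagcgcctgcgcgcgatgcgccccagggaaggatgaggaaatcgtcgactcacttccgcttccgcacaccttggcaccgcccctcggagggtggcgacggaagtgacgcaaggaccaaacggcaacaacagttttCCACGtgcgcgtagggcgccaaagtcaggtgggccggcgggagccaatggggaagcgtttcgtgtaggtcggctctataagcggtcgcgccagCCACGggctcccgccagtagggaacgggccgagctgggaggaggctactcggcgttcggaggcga
Pdia4 (chr6:47813463-47813762, minus strand): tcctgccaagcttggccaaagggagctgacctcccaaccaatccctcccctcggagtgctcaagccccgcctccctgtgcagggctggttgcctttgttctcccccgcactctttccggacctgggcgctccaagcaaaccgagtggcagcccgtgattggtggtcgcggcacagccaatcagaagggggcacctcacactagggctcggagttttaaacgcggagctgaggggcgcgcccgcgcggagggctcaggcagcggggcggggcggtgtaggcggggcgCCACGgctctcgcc

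An exact ERSE on either strand was present in the windows of 8 of the 28 ER genes (28.6%), against 37 of 27025 genes with a window (0.137%), a count that includes the 8. The gene list was made of chaperones, folding enzymes and degradation genes of the Atf6 and Xbp1 type. A share of their motifs above that of all genes was thus built into the list and is no result of these arrays. The 8 were Hspa5, Hsp90b1, Calr, Canx, Pdia6, Dnajc3, Creld2 and Syvn1, and Hsp90b1 had 2 copies. In Hspa5 the element began 65 bases before the start, in Pdia6 98 bases before it, in Calr 162 bases before it, and in Hsp90b1 212 and 107 bases before it. With 1 mismatch allowed among the 10 fixed letters, 13 of 28 ER genes (46.4%) had a match, Pdia4 among them, against 1.72% of all genes. The related ERSE-II, ATTGG and CCACG with 1 base between, was found in the window of Dnajb11, and in 0.0444% of all genes. The Xbp1 motif TGACGTGG was found in the window of Txndc5, and in 0.714% of all genes. CCACG by itself, which ERSE and ERSE-II contain, was in the windows of 24 of the 28 and of 35.5% of all genes.

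None of the genes with an exact ERSE was among the 4 with the widest gaps, although Atf6, 1 of the 4, had no window to search. The log2 ratios of the genes with an exact ERSE ran between -0.70 (Pdia6) and 0.29 (Syvn1), with a median of -0.10 and none at least 2-fold lower. The 20 ER genes whose window held no exact ERSE had a median of -0.38, and 3 of them, Pdia5, Dnajb9 and Pdia4, were at least 2-fold lower. With 1 mismatch allowed, the 13 genes with a match had a median of -0.11, and 1 of them, Pdia4, was at least 2-fold lower. Those without a match had a median of -0.35, and 2 were at least 2-fold lower. Hspa5, Hsp90b1, Calr and Canx, with an exact ERSE, were also among the 11 ER genes with a mean signal of at least 2000. Whether brightness had a part in this contrast was not tested. For CCACG by itself the order was the other way. The 24 ER genes with it had a median of -0.31 and hold Pdia5, Dnajb9 and Pdia4, whereas those without it had a median of 0.06. Those without it were only Dnajc10, Pdia3, Sec61b and Xbp1, and Xbp1 had a ratio of -0.54. With 24 of 28 genes carrying CCACG, this contrast rests on few genes. These medians are a description of 1 pair of arrays, the motifs were chosen with the ratios known, and a match of letters is no proof of binding.

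**Figure D3:**
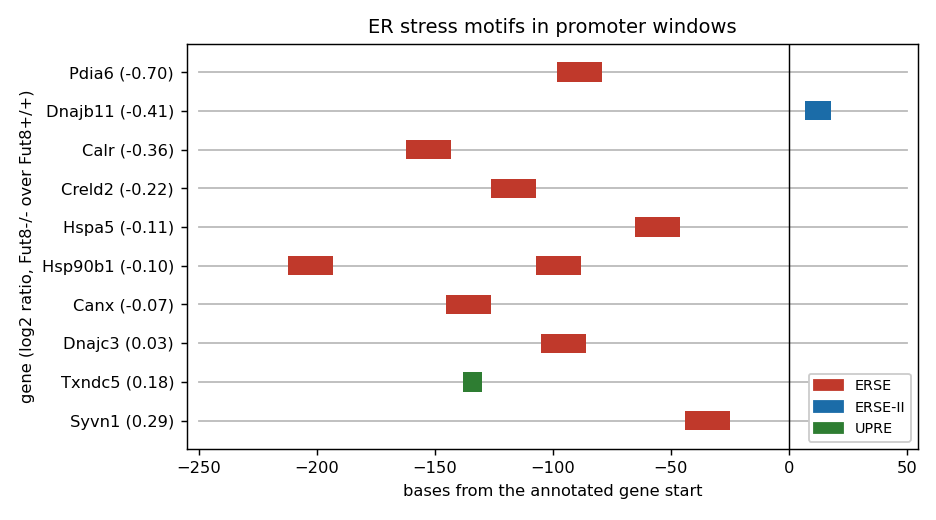
Positions of exact ERSE, ERSE-II and TGACGTGG (UPRE) matches in bases from the annotated start, for the 10 ER genes with a match, ordered by the log2 ratio of Fut8-/- over Fut8+/+ beside each name. The 8 genes with an ERSE carry it between 212 bases and 44 bases before the start, and their ratios span -0.70 to 0.29.

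Among the HSP70 chaperone and its partners, the co-chaperone gene Dnajb9 differed most. Dnajb9 (ERdj4), which steers misfolded chains to degradation and holds Ire1 inactive, had a signal of 131 in Fut8-/- cells, against 319.7 in Fut8+/+ cells, 2.09-fold lower at its 1 probe set. The gene lies on chromosome 12, whose 361 measured genes had a median log2 ratio of -0.38. The 10 measured genes nearest to Dnajb9 were all lower, with a median of -0.69, and Dnajb9 centred on its chromosome had a ratio of -0.69 in place of -1.07. Whether the chromosome had a part in the Dnajb9 value was not tested.

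Hspa5 had a signal of 5604 in Fut8-/- cells, against 7018 in Fut8+/+ cells, a centred log2 ratio of -0.11, and its other probe sets gave up to -0.39. Of the exchange factors that reset it, Hyou1 had 348 in Fut8-/- and 569.6 in Fut8+/+ cells, a ratio of -0.49. Sil1 had 184 in Fut8-/- and 221 in Fut8+/+ cells, a ratio of -0.04. Hspa5 was thus 1.08-fold lower after centring, while the Hyou1 gap was seen at both of its probe sets above the floor. Dnajb11 (ERdj3), a co-chaperone that binds unfolded chains, had signals of 676 in Fut8-/- and 1041 in Fut8+/+ cells, a ratio of -0.41. Sdf2l1, which forms a complex with Dnajb11, had 447 in Fut8-/- and 769 in Fut8+/+ cells, a ratio of -0.57. Both genes are on chromosome 16, where the median was 0.21, and their gaps were wider after centring on that chromosome (-0.61 and -0.77). Dnajc3 (p58IPK), another co-chaperone of Hspa5, had signals of 467 in Fut8-/- and 531 in Fut8+/+ cells, a ratio of 0.03. Dnajc10 (ERdj5), which reduces disulfides before degradation, had 524 in Fut8-/- and 498 in Fut8+/+ cells, a ratio of 0.29. The 5 probe sets of Dnajc3 and the 3 of Dnajc10 differed in sign, so neither gives a direction.

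By their brightest probe sets, the ER HSP90 and calnexin lay close to the all-gene centre, and calreticulin near the lower quartile of all genes. Hsp90b1 (Grp94), the ER form of HSP90, had a signal of 3725 in Fut8-/- cells, against 4658 in Fut8+/+ cells, a ratio of -0.10. Canx (calnexin), which holds glycoproteins at the membrane, had 3838 in Fut8-/- and 4689 in Fut8+/+ cells, a ratio of -0.07. Calr (calreticulin), its soluble counterpart, had 4166 in Fut8-/- and 6222 in Fut8+/+ cells, a ratio of -0.36. The other probe sets of Calr gave wider gaps, -0.72 and -0.79, as did those of Canx, -0.27 and -0.63. All probe sets of the 3 genes had the same sign.

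The isomerases had the lowest median log2 ratio of the 5 roles, -0.47 over 8 genes. Of these 8 genes 4 were at least 1.5-fold lower, where 16.6% of all measured genes were. Pdia5, a disulfide isomerase, had a signal of 232 in Fut8-/- cells, against 856 in Fut8+/+ cells. This was 3.17-fold lower, and 3.96% of all measured genes had a lower ratio. The probe set was the only one of the gene. The 10 nearest measured genes had a median of -0.05, with 6 of them lower, and the Pdia5 ratio was -1.87 after centring on chromosome 16.

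Pdia4 (ERp72) had a signal of 295 in Fut8-/- cells, against 693 in Fut8+/+ cells, 2.02-fold lower and thus at the edge of the 2-fold limit. Its other probe set was at the floor on both arrays and gave no ratio, and centring on chromosome 6 gave -0.89. Pdia6 (P5) had 1324 in Fut8-/- and 2499 in Fut8+/+ cells, 1.62-fold lower, although a dim second probe set gave 0.21. It shares chromosome 12 with Dnajb9, and centred on that chromosome its ratio was -0.32. Erp44, which retains Ero1 and unassembled proteins in the early secretory pathway by thiol bonds, had 623 in Fut8-/- and 1152 in Fut8+/+ cells, 1.59-fold lower. Both of its probe sets were lower, and centred on chromosome 4 its ratio was -0.45, short of 1.5-fold.

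The other isomerases differed little. P4hb, the disulfide isomerase that is also the beta subunit of collagen prolyl 4-hydroxylase, had a signal of 3206 in Fut8-/- and 4490.2 in Fut8+/+ cells, a ratio of -0.27. Ppib (cyclophilin B), a proline isomerase that acts on collagen, had 4686 in Fut8-/- and 5843 in Fut8+/+ cells, a ratio of -0.10. Pdia3 (ERp57), the partner of calnexin and calreticulin, had 3541 in Fut8-/- and 3995 in Fut8+/+ cells, a ratio of 0.04, while its dim second probe set gave -1.69. Txndc5, a thioredoxin-domain isomerase, had 793 in Fut8-/- and 817 in Fut8+/+ cells, a ratio of 0.18. The gene is on chromosome 13, whose median was 0.56, and centred on it Txndc5 turned to -0.39.

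Among the sensors and regulators Atf6 was lower and Ern1 was not. Atf6, the membrane-bound factor released by cleavage, had a signal of 107 in Fut8-/- cells, against 285 in Fut8+/+ cells, 2.29-fold lower. Its 3 probe sets were all lower but unequal, with ratios of -1.19, -0.93 and -0.04. The 10 nearest measured genes had a median of 0.27, with 3 of them lower. Ern1, which encodes Ire1, had 182 in Fut8-/- and 168 in Fut8+/+ cells, a ratio of 0.33. Xbp1, the target of Ire1, had 1629 in Fut8-/- and 2766 in Fut8+/+ cells, a ratio of -0.54. Its 4 probe sets were unequal, with ratios between -0.65 and -0.003, the last being no clear difference. The arrays do not tell spliced Xbp1 messenger RNA from unspliced.

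The secreted stress proteins lay near the centre. Creld2, a secreted protein with disulfide isomerase activity, had a signal of 753 in Fut8-/- and 1022 in Fut8+/+ cells, a ratio of -0.22. Manf, a secreted cytoprotective factor, had 2754 in Fut8-/- and 3039 in Fut8+/+ cells, a ratio of 0.08. Each of these genes had 1 probe set.

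**Figure D4:**
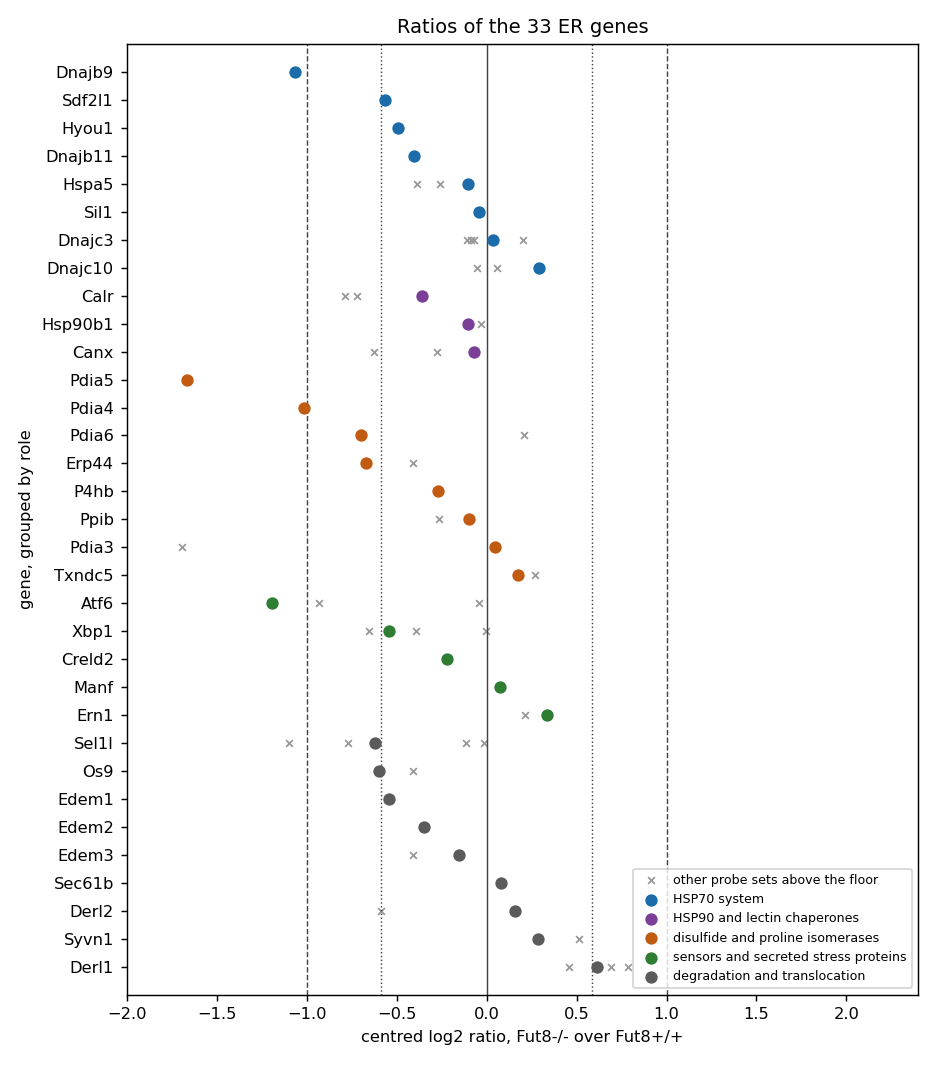
Centred log2 ratios of Fut8-/- over Fut8+/+ for the 33 ER genes grouped by role, with the brightest probe set in colour and other probe sets above the floor as grey crosses. Dashed lines mark 2-fold and dotted lines 1.5-fold. Points lie mostly left of 0, with Pdia5 at -1.67, and Derl1 has all 4 probe sets on the right.

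In the degradation branch, centred ratios lay below 0 for Edem1, Edem2, Edem3, Os9 and Sel1l. They lay above 0 for Syvn1, Derl1, Derl2 and Sec61b. Those of Edem2, Edem3, Syvn1, Derl2 and Sec61b were closer to 0 than 0.40, the all-gene SD between probe sets of the same gene. Edem1, Edem2 and Edem3 encode the proteins that speed mannose trimming of misfolded glycoproteins. Edem1 had a signal of 334 in Fut8-/- and 568 in Fut8+/+ cells, a log2 ratio of -0.54. Edem2 had 195 in Fut8-/- and 288 in Fut8+/+ cells, a ratio of -0.35. Edem3 had 437 in Fut8-/- and 564 in Fut8+/+ cells, a ratio of -0.15. The 2 probe sets of Edem1 gave -0.54 and -0.55. Os9, the lectin that reads the trimmed glycan, had a signal of 199.9 in Fut8-/- and 352 in Fut8+/+ cells, 1.51-fold lower. Sel1l, which joins Os9 to the ubiquitin ligase Syvn1 (Hrd1), had 334 in Fut8-/- and 596 in Fut8+/+ cells, 1.54-fold lower. Its 5 probe sets were all below 0 but unequal, with ratios between -1.10 and -0.02. Sel1l also lies on chromosome 12, and its ratio centred on that chromosome was -0.24.

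Syvn1 had a signal of 492 in Fut8-/- and 469.6 in Fut8+/+ cells, a ratio of 0.29, and both probe sets were above 0. Derl1, a derlin of the retrotranslocation channel, had 2501 in Fut8-/- cells, against 1902 in Fut8+/+ cells, 1.53-fold higher. All 4 Derl1 probe sets were higher, with ratios between 0.46 and 0.78. Only 1 of the 10 measured genes nearest to Derl1 on chromosome 15 was lower, and their median was 0.97; the part of the region in the Derl1 value was not tested. Derl2, its relative, had 773 in Fut8-/- and 805 in Fut8+/+ cells, a ratio of 0.16. Its dimmer probe set gave -0.59, so Derl2 gives no direction. Sec61b, a subunit of the channel through which chains enter the ER, had 3440.0 in Fut8-/- and 3779.5 in Fut8+/+ cells, a ratio of 0.08. Without centring, 29 of the 33 ratios lay below 0, those of Derl2, Sec61b, Manf, Pdia3, Txndc5 and Dnajc3 among them.

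Of the 33 genes, 22 had more than 1 probe set above the floor. Their probe sets agreed in sign for 17 genes and were of mixed sign for Dnajc3, Dnajc10, Pdia3, Pdia6 and Derl2. Within these 22 genes the SD of log2 ratios between probe sets was 0.35, against 0.40 over 5389 genes. This spread is technical and gives no error between cultures, and 19 of the 33 ER genes had a ratio closer to 0 than the all-gene SD.

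Other genes of the ER were read from lists of the same pathway. Among 32 measured folding factors outside the 33, the median log2 ratio was -0.26, and 2 genes passed the 2-fold limit as lower and 1 as higher. By that limit 8.46% of all measured genes were lower and 6.08% higher. At 1.5-fold 11 of the 32 were lower and 1 higher, where 16.6% of all measured genes were lower and 14.4% higher. Fkbp7, an ER proline isomerase, had a signal of 512 in Fut8-/- and 166 in Fut8+/+ cells, 3.59-fold higher. Dnajc1 (ERdj1), an HSP70 co-chaperone, was 2.36-fold lower, and Uggt2, a relative of the enzyme that re-glucosylates misfolded glycoproteins, 2.19-fold lower. The probe sets of Uggt2 differed in sign. These genes thus had a median close to that of the 33.

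Among 33 further measured degradation genes the median was 0.15, and 2 passed the 2-fold limit as lower and 2 as higher; without centring the median was -0.07. Herpud1, a stress-induced partner of the Syvn1 ligase, had a signal of 314 in Fut8-/- and 971 in Fut8+/+ cells, 2.66-fold lower at 2 of 2 probe sets. Ube4a, a ubiquitin ligase gene, was 2.20-fold lower, with probe sets of both signs. The glycoprotein-binding ubiquitin ligase subunit gene Fbxo2 was 2.60-fold higher and the ER ubiquitin ligase gene Rnf139 2.43-fold higher. Of 22 genes of the translocon and the signal peptidase, 2 were at least 2-fold lower, namely the channel subunit gene Sec61a2 (2.47-fold) and the signal peptidase subunit gene Spcs3 (2.08-fold), and 0 were higher. Their median was -0.04.

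The remaining regulators of the unfolded protein response had the lowest median, -0.53 over 16 genes, and 4 of them passed the 2-fold limit, all as lower. By that limit 8.46% of all measured genes were lower. Creb3l1, an Atf6-like factor of matrix-secreting cells, had signals of 0.936 in Fut8-/- and 66.7 in Fut8+/+ cells. With Fut8-/- cells at the floor this is a bound of at least 5.40-fold lower. Nucb2, a calcium-binding protein gene, was 2.58-fold lower. Ddit3 and Ppp1r15a, targets of the PERK branch, had ratios of -2.07 and -1.75, and the probe sets of Ddit3 differed in sign. Of the sensors outside the 33, Eif2ak3, which encodes PERK, had a ratio of -0.85 and Atf6b -0.43, so Ern1 was the 1 sensor gene of the 4 with a ratio above 0.

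**Figure D5:**
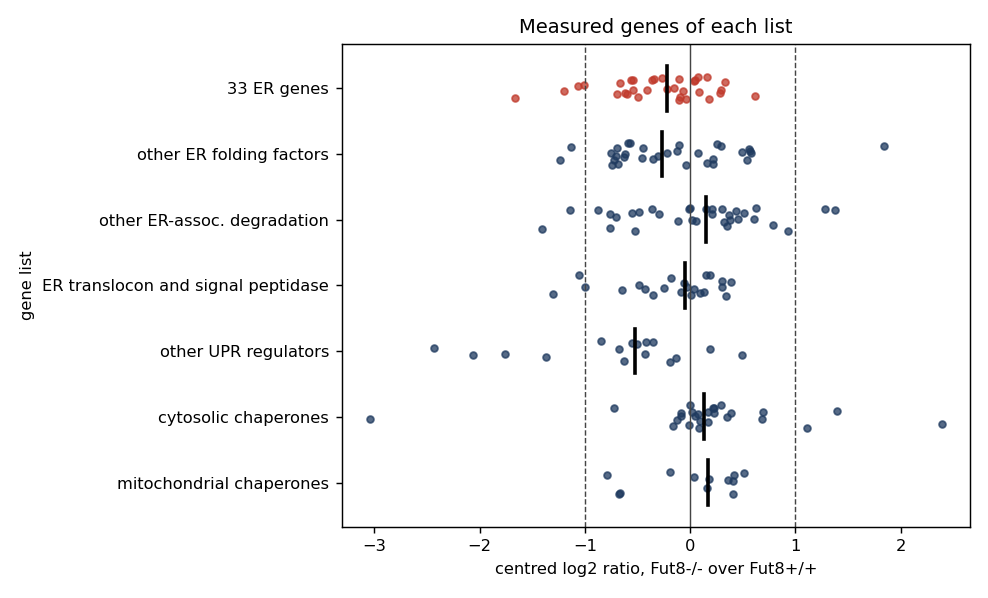
Centred log2 ratios of Fut8-/- over Fut8+/+ for the 33 ER genes and the measured genes of 6 other lists, with 1 point a gene and a black bar at the median of each list. Dashed lines mark 2-fold. The medians are -0.22 for the 33 genes, -0.26 for other folding factors, 0.15 for other degradation genes, -0.04 for the translocon, -0.53 for other regulators, 0.13 for cytosolic and 0.17 for mitochondrial chaperones.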

How the data were processed

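The deposited values were linear signal intensities, 1 for each probe set on each array, made by the authors with GCOS (Affymetrix GeneChip Operating Software) per the submitters' processing notes; its version, algorithm and scaling are not given in the labels. Median signals over 45101 probe sets were 16.9 in Fut8-/- and 20.5 in Fut8+/+ cells, so scale and centring stay unknown beyond the values being linear.

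After log2 transformation, ratios of Fut8-/- to Fut8+/+ had their median among probe sets brighter than each array's 40th percentile (-0.22) subtracted. Signals below the pooled 40th percentile (12.3) were raised to it. A gene counted as measured if either array reached the 60th percentile (39.1). Probe sets with 1 symbol in the platform annotation (34945) gave 18193 genes, each by its probe set of highest mean log2 signal; chromosomes came from the gene table of GRCm38.p6. Genes were counted at 2-fold and 1.5-fold. The number of arrays, 1 per genotype, limits the precision of every value, and no p-value is given. All 33 genes are named; of other lists, the genes past 2-fold, and otherwise the 2 widest ratios. Eif2ak3, Atf6b and the single marker genes fall outside this rule and were picked with their values known. The genes, lists and motifs were chosen with earlier results of these data known. Steps were tested on simulated data and run in Python 3.11.15 with pandas 2.3.3, numpy 2.4.6 and statsmodels 0.14.6; 9 alternatives were tried.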

Additional observations from a re-analysis of the deposited data

How the results depend on the processing

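No paired analysis was possible because each genotype has 1 array. Over 9 alternatives, 293 of 297 ratios of the 33 genes moved by less than the probe-set SD of 0.40, 4 moved by more and 0 of the genes at least 2-fold lower changed sign. Much of this was fixed by the settings. The floor and filter alternatives left all 33 ratios as they were, because these genes lie above every limit. Leaving out centring shifted every ratio by the same -0.22, which is less than that SD. Without centring, which moves the median of all measured genes by -0.23, the median of the 33 was -0.44, 13 were at least 1.5-fold lower and 0 higher; relative to all genes that median was -0.21, against -0.22 with centring. Quantile normalization and loess also left 0 genes at least 1.5-fold higher, since Derl1 fell short of the limit. The count of at least 2-fold lower genes was 4 under 7 alternatives, among them the floor and filter alternatives, which changed no ratio of these genes. It was 2 (Dnajb9 and Pdia5) with the median over probe sets, where Pdia4 had -0.51 and Atf6 -0.93, and 2 (Atf6 and Pdia5) with each chromosome centred, where Dnajb9 had -0.69 and Pdia4 -0.89. The median over probe sets also moved Pdia3 to -0.82 and Pdia6 to -0.24, and centring each chromosome moved Txndc5 to -0.39. With the filter at the 75th percentile, 332 of all genes were at least 2-fold higher and 448 lower, in place of 618 and 860. Higher genes made up 41.8% of the 2-fold calls over all genes, and 25.7% without centring.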

Other observations

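Chaperones of other compartments gave medians above 0 with centring and below 0 without it. Among 26 measured cytosolic chaperones the median log2 ratio was 0.13, and 3 genes passed the 2-fold limit as higher and 1 as lower. By that limit 6.08% of all measured genes were higher and 8.46% lower. The inducible HSP70 gene Hspa1b had a signal of 1363 in Fut8-/- and 302 in Fut8+/+ cells, 5.25-fold higher at 3 of 3 probe sets, and its near-identical copy Hspa1a may share that signal. Hspa4l was 2.64-fold higher and the small heat shock protein gene Hspb8 2.15-fold higher, whereas Hspb1, another small heat shock protein gene, was 8.22-fold lower, with signals of 35.8 in Fut8-/- and 342 in Fut8+/+ cells. Among 12 mitochondrial chaperones and proteases 0 passed 2-fold and the median was 0.17. The widest ratios were those of the protease genes Lonp1 (-0.79) and Yme1l1 (-0.67). Without centring the medians were -0.09 for cytosolic and -0.05 for mitochondrial chaperones, Lonp1 was more than 2-fold lower and Hspb8 was not 2-fold higher. With quantile normalization the medians were 0.03 for cytosolic and 0.06 for mitochondrial chaperones, and with loess 0.03 and 0.04. The sign of these medians thus depends on the scaling.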
